A study of Caenorhabditis elegans with 12 samples.

Results

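Across the 4 conditions of this *C. elegans* series, 94 protein-coding genes that carry only a sequence name were most abundant in first-day wild-type adults. A sequence name, such as ZK813.7, is derived from the clone on which a gene was found and says nothing of what the gene does. The 94 were selected on the measured values themselves, from 8720 such genes among 21752 genes with an isoform in the files. For each gene, the TPM of its isoforms (a level corrected for transcript length and sequencing depth) were summed and averaged over the 3 libraries of a condition. A gene was kept when its first-day wild-type mean was at least 3 TPM, which 3386 unnamed genes reached, when that mean plus 0.5 was at least 2 times the mean plus 0.5 of sixth-day wild type and of first-day *fog-2(lf)*, and when the first-day *fog-2(lf)* mean plus 0.5 was below 2 times that of sixth-day *fog-2(lf)*. The level of these genes in first-day wild type relative to the other conditions is therefore how they were chosen and not a result, and the calls given for them below are descriptions. The rule set no limit between first-day wild type and sixth-day *fog-2(lf)*: there the first-day wild-type mean plus 0.5 was at least 2 times higher for 86 of the 94, and for R09E12.9 it was the lower of the pair.

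RNA from pools of whole animals was sequenced from wild type (strain N2) and from the *fog-2* mutant strain JK574, which carries the q71 allele, on the first day of adulthood, before eggs were visible, and on the sixth day, with 3 biological replicates per condition. All animals were grown at 20 degrees on OP50 bacteria without further treatment, and JK574 serves as the model of XX animals without sperm. N2 XX adults are hermaphrodites that first make a limited number of sperm and then only oocytes, and that stop laying fertilised eggs when the sperm are used up, whereas XX animals that lack *fog-2* make oocytes but no sperm. First-day wild type is thus the condition of the 4 in which animals still hold self-sperm, and the comparisons ask which transcripts differ between that condition and the 3 without it. In *C. elegans*, major sperm proteins drive the crawling of sperm and signal to oocytes, and their genes are transcribed while spermatocytes form. The adult intestine makes the yolk proteins that oocytes take up.

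Libraries held 21162593 to 38775999 estimated counts, with the lowest total in first-day wild-type replicate 3. *fog-2* itself measured 42.1, 37.7 and 36.9 TPM in first-day and 55.4, 58.6 and 63.96 TPM in sixth-day wild type, and 2.94 to 4.19 TPM in the 6 mutant libraries, so that no library went against its genotype label. In whole animals, fewer cells of a type and less RNA per cell cannot be told apart.

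The 3 first-day wild-type libraries differed from each other in ways that bear on every member. The summed level of 29 major sperm protein genes was 8.85, 895 and 23.9 TPM in first-day wild-type replicates 1, 2 and 3, 22.7, 4.81 and 19.2 TPM in sixth-day wild type, 5.86, 76.1 and 5.43 TPM in first-day *fog-2(lf)* and 7.899, 5.67 and 5.21 TPM in sixth-day *fog-2(lf)*. First-day wild-type replicate 2 stood far above every other library, first-day *fog-2(lf)* replicate 2 came next, first-day wild-type replicate 3 was above 8 of the 9 libraries of the other conditions, and replicate 1 lay within their range. Another 43 sperm genes summed to 242, 671 and 216 TPM in first-day wild type and to 195 to 290 TPM in the other 9 libraries, and 67 of the 72 sperm genes measured were highest in replicate 2 among the first-day wild-type libraries. Genes of the male soma and seminal fluid summed to 3.15 to 11.8 TPM in all 12 libraries. The 19 intestine genes ran the other way, at 23849, 15498 and 34048 TPM in first-day wild type, with 14 of the 19 lowest in replicate 2. They summed to 4872, 5882 and 3549 TPM in sixth-day wild type, 10398, 10299.9 and 13542 TPM in first-day *fog-2(lf)* and 8718.5, 7962 and 5644 TPM in sixth-day *fog-2(lf)*, so that every first-day wild-type library was above every other library. This separation lay in the 6 yolk protein genes: the other 13 summed to 4751, 3314 and 7266 TPM in first-day wild type, 1854 to 2731 TPM in sixth-day wild type, 2323 to 3179 TPM in first-day *fog-2(lf)* and 4435, 4739 and 2939 TPM in sixth-day *fog-2(lf)*, where replicates 1 and 2 were above first-day wild-type replicate 2. Cuticle collagens summed to 16865, 26631 and 9774 TPM in first-day wild type, against 19716 to 32473 TPM in first-day *fog-2(lf)* and 737 to 1771 TPM on the sixth day.

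The members also differed among these 3 libraries. For 71 of the 94, first-day wild-type signal was spread over more than 1 library, 19 had over 80% of their summed first-day wild-type TPM in replicate 2, 4 had over 80% of it in replicate 3, and 0 had it in replicate 1. This grouping was made after the values were seen. The median multi-library member measured 2.19, 1.20 and 2.66 times its own 12-library mean in the 3 first-day wild-type replicates, and 0.507 to 0.667 times that mean in the other 9 libraries. Of these 71 genes, 54 were lowest in replicate 2, 44 were highest in replicate 3, and the median ratio of replicate 2 to the mean of the other two replicates was 0.4965. The median replicate-2 member measured 0.0671, 9.92 and 0.192 times its mean in first-day wild type, and its next highest library was first-day *fog-2(lf)* replicate 2, at 0.747 times. Within first-day wild type, the multi-library members were mostly lowest in the library with the lowest intestine sum. The replicate-2 members were high in the library with the highest sperm sum, but the grouping itself fixes their height there. Setting them apart also moves the remaining members towards low values in replicate 2. Over all 94 members, replicate 2 was the lowest first-day wild-type library for 57 and the highest for 28. Replicate 2 was also lowest there for neuron genes (469, 423 and 489.5 TPM) and early embryo genes (1189, 980 and 997 TPM). Pharynx genes were at 384, 321.3 and 321.4 TPM. Replicate 2 was highest there for body wall muscle (4694, 4946 and 4334 TPM) and moulting and hypodermis genes (276.5, 309.5 and 239.6 TPM). It was also highest for cuticle collagens and for male soma and seminal fluid genes, and in between for oocyte and eggshell and somatic gonad genes. Over the other 9 libraries the intestine sum ran from 3549 to 13542 TPM, or 1854 to 4739 TPM without the yolk protein genes. The median multi-library member stayed at 0.507 to 0.667 times its mean there. The rule itself limited the members' levels in sixth-day wild type and first-day *fog-2(lf)*, and their fall with age in *fog-2(lf)*. Nothing is therefore read from that contrast. The part of sperm and intestine RNA in the members' levels was not tested.

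**Figure D1:**
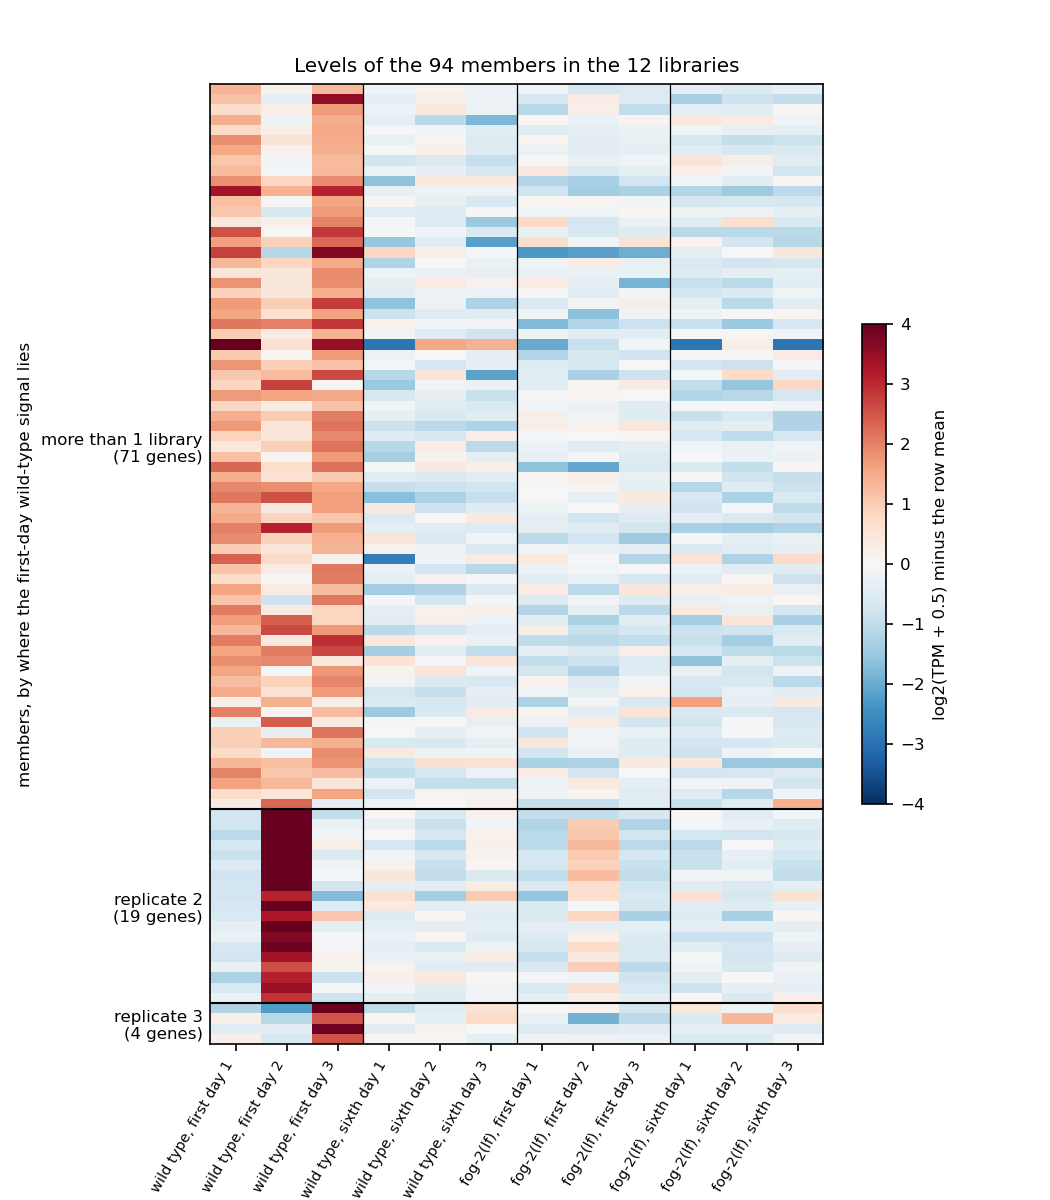
Each row is 1 of the 94 members and each column 1 of the 12 libraries; colour is log2(TPM + 0.5) minus the row mean, with values beyond 4 drawn at the end of the scale. The upper block of 71 genes is high in all or most first-day wild-type libraries, the block of 19 is high in replicate 2 alone with a weaker signal in first-day *fog-2(lf)* replicate 2, and the last 4 are high in replicate 3.

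**Figure D2:**
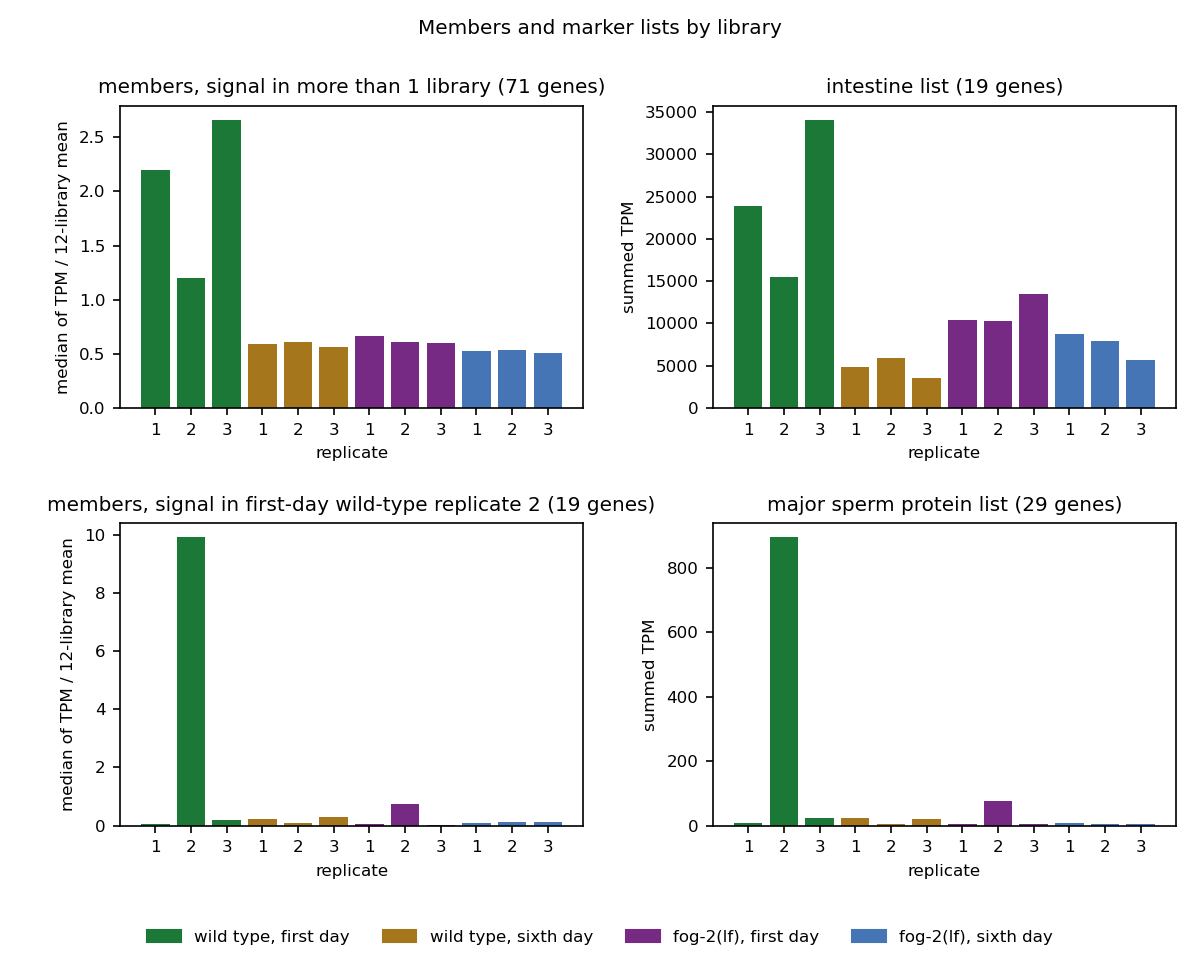
Bars show, for each library, the median of TPM over its own 12-library mean for the 71 multi-library members and the 19 replicate-2 members (left), and the summed TPM of the intestine and major sperm protein lists (right); colours are conditions and the numbers under the bars are replicates. First-day wild-type replicate 2 is the lowest of its condition in both upper panels (1.20 times and 15498 TPM) and the highest library in both lower panels (9.92 times and 895 TPM). The 19 members were grouped by their signal in that library, which fixes its height in the lower left panel.

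Among the 94 genes, 11 had a first-day wild-type mean of at least 100 TPM, 34 lay from 10 to 100 TPM and 49 were below 10 TPM, with a median of 8.97 TPM and a range from 3.03 to 1245 TPM. The 10 highest held 70.4% of the summed first-day wild-type level, and all 10 were multi-library members. ZK813.7 (chrX:3444814-3445197), the most abundant, measured 1557.5, 673 and 1504 TPM in first-day wild type, 561, 668 and 517 TPM in sixth-day wild type, 555, 382 and 413 TPM in first-day *fog-2(lf)* and 463.5, 417 and 486 TPM in sixth-day *fog-2(lf)*. First-day wild-type replicate 2 barely exceeded the highest of the other 9 libraries, at 668.3 TPM, while replicates 1 and 3 were far above it. Its log2 fold change was -1.52 ± 0.29 (SE, n = 3 libraries per condition) with age in wild type and -1.59 ± 0.29 for genotype on the first day. The values were -1.83 and -1.91 without first-day wild-type replicate 2, and -1.09 and -1.44 when scaled by library totals alone. Fold changes come from counts rescaled between libraries, so they need not equal ratios of TPM.

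F53A9.8 (chrX:8718641-8718904) followed at 235.5, 80.2 and 1204 TPM in first-day wild type, 80.9, 122 and 88.97 TPM in sixth-day wild type, 64.3, 129.5 and 72.3 TPM in first-day *fog-2(lf)* and 41.97, 57.8 and 51.8 TPM in sixth-day *fog-2(lf)*. Its mean was set by replicate 3, which held 79.2% of its summed first-day wild-type TPM. That is just under the 80% above which it would have counted as a replicate-3 member. Replicate 2 lay just below the sixth-day wild-type libraries. The log2 fold change with age in wild type was -2.81 ± 0.75 (SE, n = 3), and -1.12 without first-day wild-type replicate 3. F09F7.6 (chrIII:5551232-5552135), whose exons overlap those of F09F7.5 on the opposite strand, measured 371, 265 and 716.5, 190.1, 290.3 and 188, 103, 269 and 112 and 171, 163 and 227 TPM in the same order of conditions and replicates. Its conditions overlapped: replicate 2 of sixth-day wild type was above first-day wild-type replicate 2. C35B1.4 (chrIV:4079814-4080146) was at 512, 163 and 514 TPM in first-day wild type, 148, 87.95 and 54.3 TPM in sixth-day wild type, 197.5, 157 and 205 TPM in first-day *fog-2(lf)* and 251, 235.5 and 172 TPM in sixth-day *fog-2(lf)*. Here the mutant was the next highest genotype on either day, and first-day wild-type replicate 2 lay inside the range of the mutant libraries.

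Libraries of F59B1.2 (chrV:3633341-3634678) did not overlap, with 327.5, 229 and 562 TPM in first-day wild type and 179.7, 178 and 142, 141, 147 and 159.5 and 170.3, 154 and 148 TPM in sixth-day wild type, first-day and sixth-day *fog-2(lf)*. Its exons overlap those of *srx-41* on the opposite strand. Y62H9A.4 (chrX:11880126-11881226) also separated, at 450.3, 179 and 343 TPM in first-day wild type against 99.3, 128 and 87.02, 132, 92.4 and 101 and 75.97, 63.5 and 68.2 TPM in the other 3 conditions, in that order. F26A3.4 (chrI:7656978-7658291), the third of the 10 without overlap besides ZK813.7, was at 176, 88.8 and 183 TPM against 15.7, 63.8 and 64.6, 21.5, 19.7 and 28.6 and 43.4, 35.9 and 53.1 TPM. It was lowest in replicate 1 of sixth-day wild type and in the first-day mutant libraries.

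The remaining 3 of the 10 overlapped in first-day wild-type replicate 2. F53H4.2 (chrX:15857153-15857974) measured 419.5, 160.4 and 378 TPM in first-day wild type and 138, 164 and 98.9, 120.0, 103 and 107.5 and 103, 90.4 and 94.7 TPM in the other 3 conditions. For ZK1320.3 (chrII:9659246-9660419) the values were 233, 98.9 and 259, 64.3, 73.3 and 56.2, 107, 89.96 and 97.3 and 159, 130.4 and 79.4 TPM, so that sixth-day *fog-2(lf)* came closest to first-day wild type. F52E1.14 (chrV:8383922-8384871), which overlaps *hsp-17* on the opposite strand and shares reads with other transcripts, was at 236, 93.2 and 243, 82.9, 78.5 and 61.5, 129, 64.2 and 75.6 and 112, 91.1 and 57.5 TPM.

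**Figure D3:**
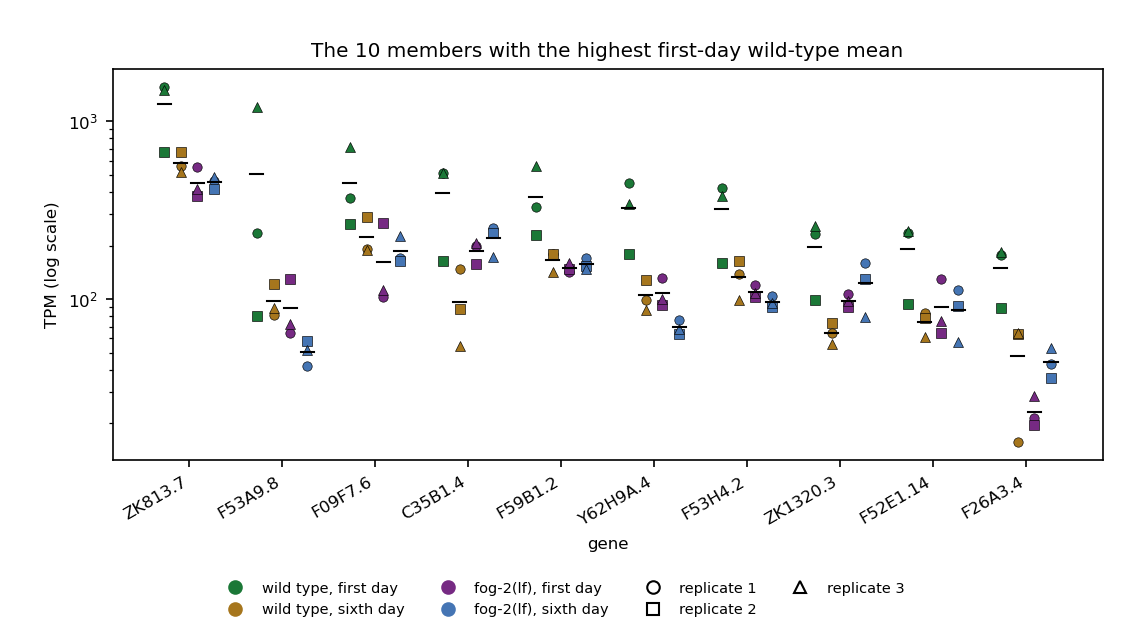
TPM on a log axis for the 10 members with the highest first-day wild-type mean; symbols are single libraries, marker shapes are replicates, colours are conditions and black lines are condition means (n = 3). In all 10 genes first-day wild-type replicates 1 and 3 lie above every library of the other conditions, and replicate 2, drawn as a square, is the lowest of its condition.

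For 41 of the 94 members all 3 first-day wild-type libraries were above the other 9, where 4.17% of all genes at or above 3 TPM in first-day wild type met the same condition. All 41 were multi-library members, a near consequence of the grouping. The count was 65 without first-day wild-type replicate 2, 43 without replicate 1 and 44 without replicate 3. With fewer libraries the condition is easier for every gene to meet. The share of all genes that met it then was not counted, so nothing is read from these 3 counts. With the largest margin of the 41 (the smaller of the 2 ratios that the rule used), at 8.32, H29C22.1 (chrX:9310625-9311325) was at 207, 53.9 and 175 TPM in first-day wild type, 16.2, 17.6 and 17.3 TPM in sixth-day wild type, 11.4, 7.43 and 8.05 TPM in first-day *fog-2(lf)* and 8.58, 7.18 and 9.38 TPM in sixth-day *fog-2(lf)*. Even replicate 2, the lowest of its condition, was far above the highest of the other 9. The log2 fold change was -3.52 ± 0.43 (SE, n = 3) with age in wild type and -4.15 ± 0.44 for genotype on the first day, and -3.93 and -4.56 without first-day wild-type replicate 2. M7.12 (chrIV:11096717-11097982) separated more widely, its lowest first-day wild-type library being 5.73 times the highest other one against 3.67 for C29F7.2 and 3.06 for H29C22.1, but at a lower level and with replicate 2 the highest, at 7.28, 16.2 and 5.77 TPM in first-day wild type, 1.01, 0.875 and 0.859 TPM in sixth-day wild type, 0.964, 0.858 and 0.654 TPM in first-day *fog-2(lf)* and 0.291, 0.246 and 0.336 TPM in sixth-day *fog-2(lf)*. Sixth-day *fog-2(lf)* was the lowest condition of this gene, with no overlap with any other.

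H29C22.1 and M7.12 were the only members among the 10 with the largest margin that did not rest on first-day wild-type replicate 2. The other 8 were T08B2.12, F36D1.4, F08H9.2, Y38C1AA.7, F26B1.8, F08B4.8, F27C1.1 and C33F10.1. T08B2.12 (chrI:6231496-6232129) measured 0.0757, 33.3 and 0 TPM in first-day wild type, from 1, 439 and 0 estimated counts, and 0 to 0.590 TPM in the other 9 libraries. Its first-day mutant libraries held 0, 0 and 2 counts, without the weaker signal in first-day *fog-2(lf)* replicate 2 that most of this group showed. Estimated counts of this gene were fractional in 6 libraries. It therefore shares reads with other transcripts, and its low values are uncertain. F36D1.4 (chrI:11271688-11272385) rested on 13 estimated counts in replicate 2, listed as 12.96 TPM because its transcript of 195 nucleotides has an effective length of 24.1, and it was listed at 0 in the other 11 libraries.

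The next 3 each had a trace in first-day *fog-2(lf)* replicate 2. F08H9.2 (chrV:14460665-14461057) was at 0.192, 25.6 and 0.462 TPM in first-day wild type, 0.4302, 0.117 and 0.573 TPM in sixth-day wild type, 0, 1.83 and 0 TPM in first-day *fog-2(lf)* and 0.622, 0.439 and 0.319 TPM in sixth-day *fog-2(lf)*. Y38C1AA.7 (chrIV:158962-159836) followed the same libraries, at 0, 24.8 and 0.465, 0.569, 0.176 and 0.693, 0, 1.76 and 0.141 and 0.157, 0.133 and 0.181 TPM in these conditions. F08B4.8 (chrIV:8677603-8677974) had 0.151, 22.3 and 0.7302 TPM in first-day wild type, then 0.17, 0 and 0.725, 0, 2.11 and 0 and 0, 0.555 and 0.252 TPM. In all 3, first-day wild-type replicates 1 and 3 were no higher than the highest library of sixth-day wild type or just above it. F26B1.8 (chrI:6329536-6330181) measured 0, 15.2 and 0 TPM in first-day wild type and at most 0.827 TPM elsewhere, in first-day *fog-2(lf)* replicate 2. C33F10.1 (chrII:4835023-4835717), with 0.142, 17.1 and 0.343 TPM, likewise had its highest other value, 1.28 TPM, in that library. F27C1.1 (chrI:5434805-5435785), with 0, 13.99 and 0.0609 TPM, had its highest other value of 0.553 TPM in replicate 1 of sixth-day wild type.

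Over the 19 replicate-2 members, the summed level was 3.23, 294.6 and 8.03 TPM in first-day wild-type replicates 1, 2 and 3, 10.4, 4.84 and 11.3 TPM in sixth-day wild type, 2.58, 22.6 and 2.304 TPM in first-day *fog-2(lf)* and 6.95, 4.75 and 7.64 TPM in sixth-day *fog-2(lf)*. The order of libraries was that of the major sperm protein sum at its upper end: first-day wild-type replicate 2, then first-day *fog-2(lf)* replicate 2. The grouping and the rule all but fix which library came first. Replicate 2 was the highest of the first-day *fog-2(lf)* libraries for 16 of the 19, against 21 of the 71 multi-library members, and replicate 2 was the lowest of the sixth-day wild-type libraries for 14 of the 19. The 19 were grouped by their share in first-day wild-type replicate 2, which all but fixes what is left without it: 0 of the 19 met the rule and their median ratios to sixth-day wild type and first-day *fog-2(lf)* were 0.8997 and 0.782, where they had been 6.98 and 5.94. Of the 71 multi-library members 66 still met it, with median ratios of 3.55 and 3.48 in place of 3.14 and 3.01.

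**Figure D4:**
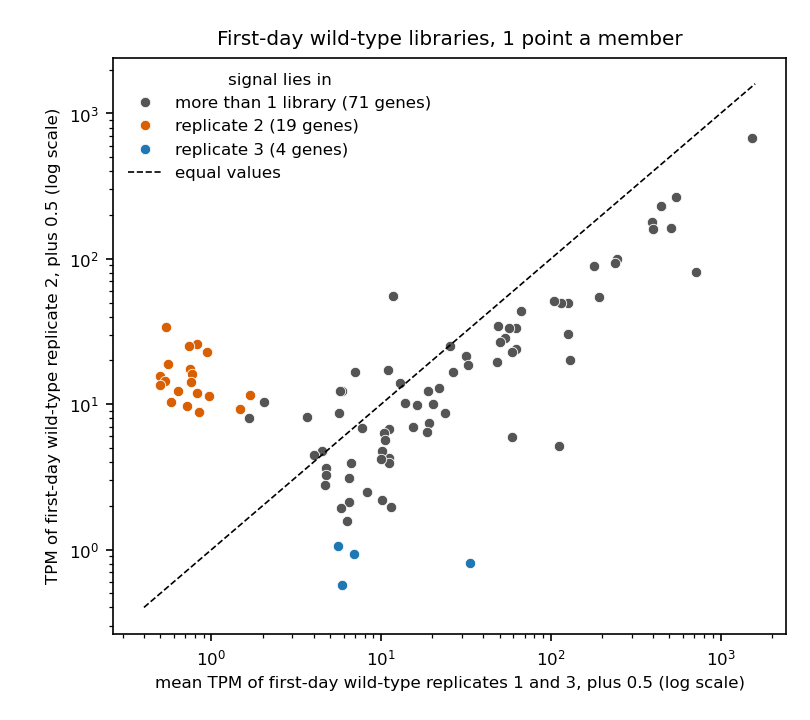
Each point is a member, placed by the mean TPM of first-day wild-type replicates 1 and 3 and by the TPM of replicate 2, both plus 0.5 on log axes; the dashed line marks equal values and colours mark where the signal lies. Most of the 71 multi-library members lie below the line, the 19 replicate-2 members lie above it at the left, and the 4 replicate-3 members lie below it.

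The 4 replicate-3 members were C23G10.11, T22F3.11, T16G1.4 and F46C5.1. C23G10.11 (chrIII:6215164-6215576) measured 1.16, 0.313 and 64.7 TPM in first-day wild type and 1.40 to 5.71 TPM in the other 9 libraries. T22F3.11 (chrV:3612158-3614553) was at 0.05303, 0.0675 and 10.7 TPM, 0.0594, 0.323 and 0.262 TPM in sixth-day wild type and at most 0.0859 TPM in *fog-2(lf)*. In F46C5.1 (chrII:8820153-8821190), with 1.84, 0.434 and 10.9 TPM in first-day wild type, replicate 2 of sixth-day *fog-2(lf)* at 4.55 TPM exceeded first-day wild-type replicates 1 and 2. All 4 were low in first-day wild-type replicates 1 and 2, so their place among the 94 rests on 1 library.

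Lying within 10000 bp of another member were 12 of the 94, in 5 places, and the deposited tables let their patterns be set side by side. Among the unnamed genes at or above 3 TPM in first-day wild type, 66.3% had such a neighbour, but that set is far larger. No clustering is read from the count. On chromosome IV, C10C5.3 (chrIV:9374829-9376492), C10C5.4 (chrIV:9378552-9380452) and C10C5.5 (chrIV:9381436-9383189) follow each other on the plus strand with 0 protein-coding genes between them. C10C5.4 was even across first-day wild type, at 26.7, 24.6 and 23.3 TPM, and measured 4.84, 6.08 and 4.04 TPM in sixth-day wild type, 7.44, 8.28 and 7.802 TPM in first-day *fog-2(lf)* and 3.16, 3.403 and 4.72 TPM in sixth-day *fog-2(lf)*. Its 2 neighbours were highest in replicate 2, C10C5.3 at 14.6, 55.04 and 8.01 TPM and C10C5.5 at 1.57, 7.59 and 0.755 TPM in first-day wild type. All 3 had fractional estimated counts in all 12 libraries, which arise where reads fit more than 1 transcript, so the number of reads given to each is uncertain. Which transcripts share these reads was not examined.

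On chromosome V, T16G1.7 (chrV:12932941-12935112), T16G1.6 (chrV:12935538-12937174) and T16G1.4 (chrV:12940141-12941847) lie on the minus strand, with 1 protein-coding gene between T16G1.6 and T16G1.4. T16G1.7 measured 8.15, 11.8 and 28.5 TPM in first-day wild type, 2.48, 7.35 and 2.598 TPM in sixth-day wild type, 4.98, 4.11 and 4.4 TPM in first-day *fog-2(lf)* and 5.21, 4.78 and 5.22 TPM in sixth-day *fog-2(lf)*. T16G1.6 was at 4.47, 6.38 and 10.01, 0.169, 0.736 and 0.335, 0.779, 0.619 and 1.49 and 0.513, 0.316 and 0.287 TPM, and T16G1.4 at 1.36, 0.5602 and 8.77 TPM in first-day wild type and 0.581 to 1.21 TPM elsewhere. All 3 were highest in first-day wild-type replicate 3, and the first 2 did not overlap with the other 9 libraries. On chromosome III, F42A10.6 (chrIII:6176157-6176861) and F42A10.7 (chrIII:6177916-6178686) are 1054 bp apart on the minus strand. F42A10.6 measured 82.2, 50.97 and 126 TPM in first-day wild type, 8.63, 18.6 and 5.36 TPM in sixth-day wild type, 41.03, 22.9 and 38.1 TPM in first-day *fog-2(lf)* and 28.4, 14.96 and 11.9 TPM in sixth-day *fog-2(lf)*, and F42A10.7 15.9, 18.2 and 47.98, 3.05, 10.5 and 1.27, 5.08, 2.67 and 3.82 and 6.95, 13.03 and 5.15 TPM. Neither overlapped between first-day wild type and the other conditions, but in *fog-2(lf)* the mean of F42A10.6 was lower and that of F42A10.7 higher on the sixth day.

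On chromosome X, C29F7.1 (chrX:13409936-13414617) and C29F7.2 (chrX:13416078-13418220) lie 1460 bp apart on the plus strand. C29F7.2 was at 36.6, 33.9 and 59.9 TPM in first-day wild type, 9.24, 7.39 and 7.39 TPM in sixth-day wild type, 2.02, 3.27 and 4.19 TPM in first-day *fog-2(lf)* and 4.17, 2.55 and 4.86 TPM in sixth-day *fog-2(lf)*. C29F7.1 measured 5.49, 2.61 and 6.53 TPM in first-day wild type and 0.639 to 1.91 TPM in the other 9 libraries. R03G8.6 (chrX:13094552-13100510) and F17H10.1 (chrX:13105241-13108543) lie 4730 bp apart on opposite strands of the same chromosome. R03G8.6 was at 14.1, 13.4 and 10.8 TPM and F17H10.1 at 61.9, 43.6 and 70.9 TPM in first-day wild type, against 1.28 to 3.74 TPM and 10.4 to 30.1 TPM in the other 9 libraries. None of these 4 genes overlapped between first-day wild type and the other conditions.

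A filter on low counts left 76 of the 94 members in a model over all genes (edgeR's quasi-likelihood test, called where the p adjusted by Benjamini and Hochberg's method over 14576 genes was under 0.1). Of the 18 that it left out, 16 were replicate-2 members and 2, ZK822.9 and T06A10.106, were multi-library members. Since a gene high in 1 condition alone could pass the filter through that condition, and the same libraries chose the members, nothing is read from the next 3 counts. With age in wild type, 73 of the 76 were called lower, against 25.4% of all genes. On the first day, 64 were called lower in *fog-2(lf)*, against 10.6% of all genes, and 50 had a positive interaction of age and genotype, against 7.36%. The median log2 fold change of the 76 was -2.14, -1.90 and 2.23 in these comparisons, beside 0.00, -0.01 and 0.02 over all genes. Without first-day wild-type replicate 2, 77 members passed the filter, with 70, 68 and 64 calls. Scaling by library totals alone moved the median of all genes by 0.42, 0.14 and -0.29, and left 73, 67 and 47 calls.

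Age in *fog-2(lf)* entered the rule in 2 ways, since the fall was not to reach 2 times and since genes with a low first-day *fog-2(lf)* mean were chosen, so these counts are also a description. Of the 76 members, 13 were called lower on the sixth day (21.1% of all genes were) and 3 higher (18.0% of all genes), with a median log2 fold change of -0.22, beside -0.03 over all genes. Those lower were C10C5.4, F14H3.12, F17H10.1, K12B6.9, M7.12, R03G8.6, T10B5.7, T16G1.6, Y49E10.18, Y50D4B.4, Y62H9A.4, Y69A2AR.12 and ZK673.1. The 3 higher were C27A7.8, W07G4.5 and R09E12.9. C27A7.8 (chrV:12153157-12154118), named for this call, measured 74.8, 4.62 and 147 TPM in first-day wild type, 19.3, 13.02 and 10.03 TPM in sixth-day wild type, 1.799, 2.003 and 2.42 TPM in first-day *fog-2(lf)* and 8.18, 10.7 and 14.9 TPM in sixth-day *fog-2(lf)*. First-day *fog-2(lf)* was its lowest condition and did not overlap with any other, while first-day wild-type replicate 2 was below every sixth-day library. W07G4.5 (chrV:13047980-13049236) was at 37.2, 18.99 and 58.5, 15.2, 17.5 and 14, 7.55, 11.2 and 9.92 and 18.3, 18.3 and 22.3 TPM and rose with age in the mutant without overlap.

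On the sixth day the genotypes were compared directly, although both conditions took part in the choice of the members. The call was lower in *fog-2(lf)* for 1 of the 76 members, M7.12 (10.4% of all genes), and higher for 4, C35B1.4, F42G4.5, R09E12.9 and ZK1320.3 (9.83% of all genes), with a median log2 fold change of 0.04, beside -0.02 over all genes. Scaled by library totals alone, these medians were -0.11 and -0.17, and without replicate 1 of sixth-day *fog-2(lf)* they were -0.05 and -0.04. The log2 fold change of M7.12 was -1.40 ± 0.42 (SE, n = 3). Those of C35B1.4 and ZK1320.3 were 1.41 ± 0.45 and 1.16 ± 0.35, from the values given above, which did not overlap between the genotypes on that day. F42G4.5 (chrII:13073480-13076228) measured 0.929, 1.15 and 2.04 TPM in sixth-day wild type and 4.06, 4.13 and 2.55 TPM in sixth-day *fog-2(lf)*, beside 10.8, 4.25 and 8.54 TPM and 4.28, 1.297 and 4.83 TPM on the first day, a log2 fold change of 1.68 ± 0.56 on the sixth day. For R09E12.9 (chrV:777600-778245) the values were 3.16, 7.64 and 3.15 TPM in first-day wild type, 1.59, 1.46 and 1.69 TPM in sixth-day wild type, 0.744, 2.27 and 1.48 TPM in first-day *fog-2(lf)* and 8.96, 1.89 and 3.35 TPM in sixth-day *fog-2(lf)*. Its sixth-day log2 fold change of 1.82 ± 0.61, and that of 1.62 ± 0.60 with age in *fog-2(lf)*, became 0.92 and 0.71 without replicate 1 of sixth-day *fog-2(lf)*, neither of them called. Its sixth-day call was also lost in all 3 limma settings, at 0.96 to 1.24, and without any of the sixth-day wild-type replicates or first-day *fog-2(lf)* replicate 3, at 1.77 to 1.86. The call with age was lost without first-day *fog-2(lf)* replicates 1 and 3, at 1.31 and 1.64. With a replicate block neither the sixth-day call nor that with age was kept, at 1.79 and 1.58. None of the 5 sixth-day calls remained when replicate 1 of sixth-day *fog-2(lf)* was left out, where edgeR called 0 members and 6 had an unadjusted p under 0.05. The log2 fold changes there were -1.44 for M7.12, 1.26 for C35B1.4, 1.54 for F42G4.5 and 0.89 for ZK1320.3. The calls of these genes were also lost without replicate 2 of sixth-day *fog-2(lf)*, at -1.29, 1.37, 1.55 and 1.13 in the same order. They were lost without replicate 2 of sixth-day wild type too, at -1.44, 1.33, 1.61 and 1.26. The count of sixth-day calls rose to 13 without first-day wild-type replicate 2, where 77 members passed the filter.

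The largest sixth-day differences towards wild type, besides M7.12, were those of T22F3.11, whose values are above, and F47E1.4. T22F3.11 had a log2 fold change of -1.58 ± 1.87 (SE, n = 3) and overlapping libraries. F47E1.4 (chrX:9062823-9066662) measured 1.78, 1.41 and 0.927 TPM in sixth-day wild type and 0.425, 0.1699 and 0.754 TPM in sixth-day *fog-2(lf)*, with 6.61, 1.71 and 12.6 TPM and 0.352, 0.332 and 0.371 TPM on the first day. Its log2 fold change of -1.39 ± 0.65 was not called. It was called with DESeq2, at -1.37, when only the libraries compared were fitted, at -1.40, and without first-day wild-type replicate 2, at -1.38.

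The 3 conditions other than first-day wild type were also set against each other, by the same means on which the rule placed limits, so the counts describe the choice. Means plus 0.5 lay within 1.5 times of each other for 64 of the 94 members between first-day *fog-2(lf)* and sixth-day wild type, for 74 between the genotypes on the sixth day, and for 62 between the days in *fog-2(lf)*, or 46 in all 3 pairs. Of all 9385 genes at or above 3 TPM in first-day wild type, 71.01%, 83.8%, 75.98% and 61.5% did so. The lowest condition was sixth-day *fog-2(lf)* for 42 members, sixth-day wild type for 26 and first-day *fog-2(lf)* for 26. Between first-day *fog-2(lf)* and sixth-day wild type, 13 members were at least 1.5 times higher in the first and 17 in the second, and within *fog-2(lf)* 21 were at least 1.5 times higher on the first day and 11 on the sixth. The limit of 2 times on a fall in *fog-2(lf)* truncated the last of these comparisons.

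**Figure D5:**
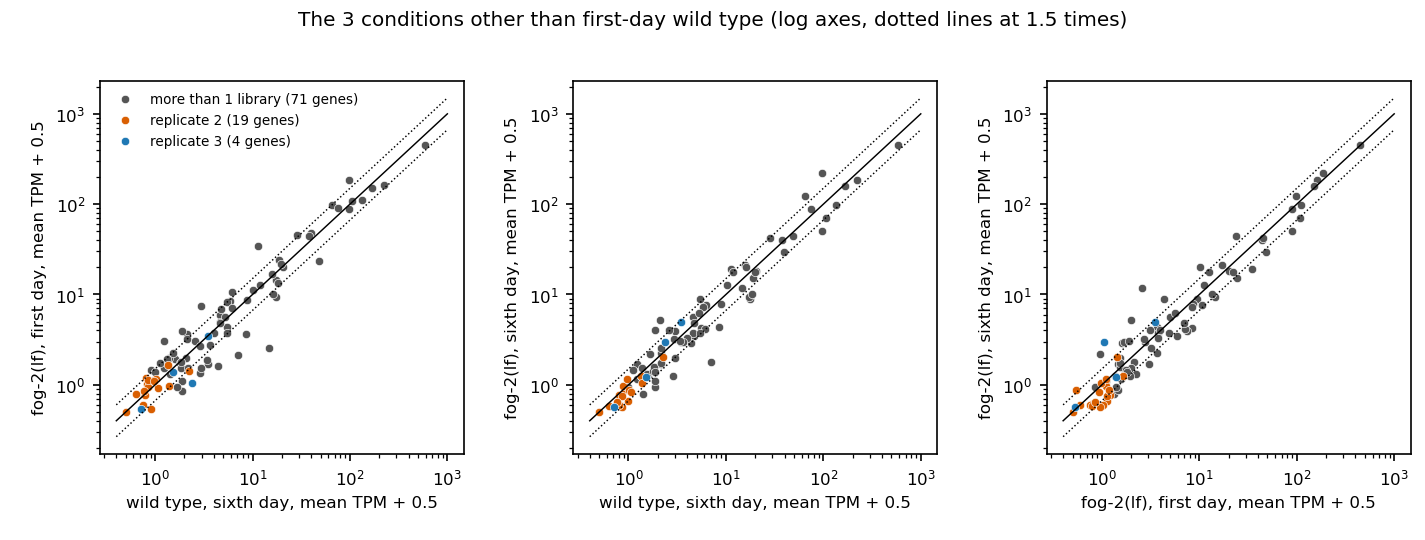
Each panel sets the means (TPM plus 0.5, log axes, n = 3) of a pair of the conditions other than first-day wild type against each other for the 94 members; the solid line marks equal values and dotted lines 1.5 times. Between the dotted lines lie 64, 74 and 62 members from left to right.

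Because the same libraries chose and measured the members, the rule was applied again to replicates 1 and 3, 2 and 3, or 1 and 2 of every condition, and the 4 libraries left out were read. Without replicate 1, 113 unnamed genes were chosen, and in the left-out libraries first-day wild type plus 0.5 was at least 2 times both sixth-day wild type and first-day *fog-2(lf)* for 40 of them, or 35.4%, where 2.64% of all genes at that level met this. Without replicate 3, 77 genes were chosen and 31 met it, or 40.3%, against 4.13% of all genes. Without replicate 2, 121 were chosen and 19 met it, or 15.7%, against 1.88% of all genes. The left-out replicate 2 thus held the pattern for fewer of the genes chosen without it than the other replicates did, though for more than the share over all genes. First-day wild type was the highest of the 4 left-out libraries for 69 of 113, 61 of 121 and 49 of 77 genes, without replicates 1, 2 and 3. The share of all genes for which it was highest was not counted, so nothing is read from these counts. The median ratio to sixth-day wild type in the left-out libraries was 1.95, 1.235 and 1.75, beside 0.834, 0.825 and 0.758 over all genes at that level. The median ratio to first-day *fog-2(lf)* was 1.84, 1.44 and 1.91, beside 0.959, 0.916 and 0.948.

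What the members share beyond their level was counted for each group, with no test. Of the 71 multi-library members, 23 lie on chromosome X and 22 on chromosome V, or 32.4% and 31.0%, where 14.35% and 18.6% of unnamed genes at or above 3 TPM in first-day wild type lie there. Chromosome I holds 3 of the 71. Of the 19 replicate-2 members, 11 lie on chromosome I, 6 on IV, 1 on II, 1 on V and 0 on X, and chromosomes I and IV hold 16.1% and 16.6% of those unnamed genes. All 94 are annotated as protein coding and 62 have 1 isoform in the files. The longest isoform had a median of 706 nucleotides over the members and 1029.5 over unnamed genes at or above 3 TPM, with 927 for the 71 and 595 for the 19. Reads are shared with other transcripts for 17 members, whose estimated counts were fractional, and exons of 18 members overlap exons of another measured gene, on the opposite strand for all of them but C35C5.8. The library kit does not mark strand, so reads inside such an overlap could come from either gene. Counts were fractional in some library for 3 of these 18 members and whole in every library for 15. Short transcripts carry a further uncertainty, since effective lengths in first-day wild-type replicate 1 exceeded those of the other 11 libraries by more than 1.1 times for 7 members and by up to 1.35 times, which lowers their TPM in that replicate. All 94 were found in the RefSeq table, which gives F35C5.12 the name *spig-16*.

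Close to the limits of the rule, Y106G6A.4 at 3.03 TPM and T27E7.1 at 3.235 TPM in first-day wild type were just inside the minimum and H11E01.2 at 2.96 TPM and W03D8.7 at 2.87 TPM just outside it, and 87 unnamed genes failed that limit alone. Against sixth-day wild type, F09F7.6 and F46C5.1 passed at ratios of 2.02 and 2.07, and T19H5.7 and F31A9.2 failed at 1.96 and 1.94, among 167 that failed there alone. Against first-day *fog-2(lf)*, ZK1320.3 and Y40H7A.11 passed at 2.004 and 2.03, and F54D5.4 and C03D6.1 failed at 1.99 and 1.98, among 89. For the fall in *fog-2(lf)*, C10C5.4 and Y49E10.18 were inside at 1.96 and 1.90, and Y69A2AR.25 and Y51H4A.5 outside at 2.01 and 2.05, among 21. Of the members at the edge, Y49E10.18 measured 19.4, 8.15 and 27.02, 2.91, 2.39 and 2.14, 6.71, 6.47 and 7.84 and 3.93, 4.22 and 2.18 TPM, and Y40H7A.11 18.02, 9.41 and 13.4, 4.35, 3.98 and 4.39, 6.77, 7.63 and 4.96 and 6.404, 3.36 and 3.06 TPM, in first- and sixth-day wild type and first- and sixth-day *fog-2(lf)*. Both separated from the other 9 libraries. Y106G6A.4, at 0.5105, 8.41 and 0.182 TPM in first-day wild type, and T27E7.1, at 0.0854, 9.28 and 0.343 TPM, were replicate-2 members, at most 0.936 and 0.8897 TPM in the other 9 libraries.

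Genes with a name of their own that passed the same limits numbered 103 of 5776 at or above 3 TPM. The 10 highest in first-day wild type were *vit-5*, which encodes a yolk protein, *spp-5*, a saposin-like antimicrobial protein, *clec-63*, a C-type lectin, *lipl-5*, a lysosomal lipase, *serp-1.1*, *asp-5*, an aspartyl protease, *adh-1*, an alcohol dehydrogenase, *ttr-42*, a transthyretin-related protein, *nlt-1*, a lipid transfer protein, and *sysm-1*. *vit-5* averaged 4245 TPM in first-day wild type, 844 in sixth-day wild type, 2003 in first-day and 1395 in sixth-day *fog-2(lf)* and had 16.7% of its summed first-day wild-type TPM in replicate 2. Over 80% of that sum lay in replicate 2 for 30 of the 103 and in replicate 3 for 1, *adh-1*, at 85.2, 43.35 and 847 TPM. The 30 included all 10 *msp* genes that passed, which encode major sperm proteins, 2 each of the *ssp*, *nspd*, *ssq*, *nsph*, *spch*, *msrp* and *gipc* genes, and all 3 collagen genes that passed. None of the 8 *clec* (lectin), 4 *acs* (acyl-CoA synthetase), 3 *cest* (carboxylesterase) and 3 *spp* genes that passed was among them. Among genes at or above 3 TPM in first-day wild type were 28 *msp*, 46 *col*, 51 *clec*, 14 *acs*, 17 *cest* and 18 *spp* genes, and no class was tested. The named genes, like the unnamed ones, thus held a group that rests on replicate 2 and a group that does not.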

How the data were processed

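RNA-seq of 12 libraries, 3 in each of 4 conditions, was used. The authors ran kallisto on 50-nt single reads of poly(A) RNA, from a kit that does not mark strand. Its TPM, as deposited by the authors, are given per isoform and add up to 1000000 in every library. Its estimated counts, also as deposited, are the reads assigned to an isoform, unscaled. The submitters' processing notes name kallisto, sleuth and the WBcel235 build, with versions not given in the sources used. Depth ran from 21162593 to 38775999 estimated counts per library.

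Of 32905 isoforms, 32598 were assigned to genes of the Ensembl 115 annotation of WBcel235 and 307 had no gene there. The latter, and 4 genes with no symbol that met the limits, were kept out of the members. The members and the lists were chosen with earlier results of these data known. Estimated counts were rounded, summed per gene, kept by edgeR's filterByExpr, given TMM factors and tested by the quasi-likelihood method of edgeR (4.0.16, in R 4.3.3) on age, genotype and their interaction over all 12 libraries. A gene was called where its Benjamini-Hochberg adjusted p over 14576 genes was under 0.1. A standard error is the log2 fold change divided by the square root of F. The fit was also run on simulated data, whose outcome is not given here, and nothing is read from that run. The replicates are described by the study as biological.

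Members were named by this rule: the 10 highest in first-day wild type, the 10 with the largest margin, members lying within 10000 bp of another member, the 2 nearest each limit on either side, and the 3 with the largest sixth-day difference between genotypes in each direction. Neighbours stand in for a protein family criterion, for which no protein sequences were used here. Genes called with age in *fog-2(lf)* or between genotypes on the sixth day, the members that rest on replicate 3, ZK822.9, T06A10.106, C35C5.8 and F35C5.12 were named after their values were seen.

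The labels do not say whether libraries with the same replicate number belong together. Over 18 pairs with the same number, deviations from the condition means correlated at r of -0.131 to 0.16 across genes. Over pairs with different numbers r was -0.16 to 0.124. The first-day replicate 2 libraries of the 2 genotypes correlated at 0.131. These values do not settle whether the samples were paired, and calls with a replicate block are given below. The alternatives were DESeq2 1.42.0, RLE factors, scaling by totals, no filter, a filter of 5 counts in 47% of libraries, limma 3.58.1 on log2(TPM + 0.5) or with offsets of 0.1 and 1, a threshold of 0.05, a fit to the compared libraries alone, a replicate block, each library left out, and other settings of the rule.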

Additional observations from a re-analysis of the deposited data

Results flagged for a closer look

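A positive interaction, meaning that the change with age differed between the genotypes, was called for 50 of the 76 members tested. The rule chose members that were higher in first-day wild type than in sixth-day wild type and first-day *fog-2(lf)* on these same libraries, so the count describes the choice. Over all genes, 7.36% had such a call. All 50 were among the 71 members whose first-day wild-type signal lay in more than 1 library. These made up 69 of the 76 tested, so the filter on low counts all but fixed this, and nothing is read from it.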

How the results depend on the processing

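The number of members was 94, and 160 with a minimum of 1 TPM, 45 with 10 TPM, 152 with all 3 ratio limits at 1.5 and 42 with the first 2 at 3. It was 77 to 121 with a library or replicate number left out, and the 121 without first-day wild-type replicate 2 held 70 of the 94. With the group median 81 genes were chosen, 51 of them members. The count without overlap, 41, was 41 to 65 with a library left out, an alternative added after seeing the data, and 65 without first-day wild-type replicate 2. The share of all genes without overlap was not counted in these settings. Counting isoforms with no gene gave 96 and genes with no symbol, also added later, 98.

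None of 13 log2 fold changes followed for single genes, in 4 of the 5 comparisons, turned its sign. Calls for age in wild type were 70 to 84 with a library left out. Leaving out a library also changed how many members passed the filter on low counts. It was 76 in the main fit, 77 without first-day wild-type replicate 2 and 88 without sixth-day *fog-2(lf)* replicate 1. The shares of all genes called in these settings are not given, so nothing about the members is read from these ranges. Those for genotype on the first day were 45 to 68, and 40 when only the libraries of the comparison were fitted. Interaction calls were 25 to 64, with 32 and 31 without replicates 2 and 3 of sixth-day wild type, 30 when first-day *fog-2(lf)* replicate 3 was left out, 25 for sixth-day *fog-2(lf)* replicate 1, and 31 at an adjusted p under 0.05. The 16 calls for age in *fog-2(lf)* were 5 to 20 with a library left out, the lowest when first-day *fog-2(lf)* replicate 1 was left out, 6 at an adjusted p under 0.05, 10 and 9 with limma at offsets of 0.5 and 1, and 25 when only the libraries of the comparison were fitted. The 5 calls for genotype on the sixth day were 0 to 13 with a library left out, 14 when only the libraries of the comparison were fitted and 10 with DESeq2. They were 0 at an adjusted p under 0.05 with edgeR, where 10 had an unadjusted p under 0.05. The cause of these changes was not tested.

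With a replicate block, calls were 67 with age in wild type, 60 for the first-day genotype, 43 for the interaction, 16 with age in *fog-2(lf)* and 6 for the sixth-day genotype. The block called F47E1.4 on the sixth day, at -1.66, and no longer called R09E12.9 on that day or with age in *fog-2(lf)*, at 1.79 and 1.58. The filter on low counts left 18 members without a fold change, 16 of them with reads almost only in 1 library. Depth limits F36D1.4, which rests on 13 estimated counts.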
